A study of Mus musculus with 35 samples.

Results

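Transcripts of 9 B-lineage genes (Vpreb1, Igll1, Dntt, Pax5, Cd79b, Cd22, Cd72, Blk and Blnk) were followed through microarray profiles of mouse marrow side population (SP) cells and CD8 T lymphocytes. The members were every probe set that the array's annotation assigned to 1 of these genes and to no other, which gave 16 of the 12422 probe sets measured, or 9 of 8251 genes. The study amplified the mRNA of very few cells by a global RT-PCR from the 3′ ends of transcripts and read it on Affymetrix MG-U74Av2 arrays. SP cells are marrow cells that pump out a DNA-binding dye and so fall in a dim tail of the sort plot, a gate enriched for hematopoietic stem cells.

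All cells came from the marrow of untreated mice, male C57Bl/6 in the labels and C57Bl/6 CD45.1 in the methods, aged 7 to 9 weeks. CD45.1 is an allele of a surface protein of blood cells that serves as a label. LSP and USP were Sca-1+ Gr-1- SP cells from the lower and the upper portion of the tail, and CD8 were marrow cells positive for CD3 and CD8. Each of these had 3 pools of amplifications from 10 cells each, and every pool was read on 2 arrays. A further 12 arrays each held a single Sca-1+ Gr-1- cell from the tip of the tail (SC), and 5 arrays held single-cell equivalents (SCE), which are aliquots of 1 lysate of 40 such cells and so share their biological source. The labels tie no pool to a mouse or day, and p-values therefore measure only the spread between these pools, which may be partly technical. A second array of a pool is a technical repeat and was averaged with the first.

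B cells form in the marrow in ordered steps. Progenitors first express a terminal transferase and a surrogate immunoglobulin light chain while they rearrange their heavy chain genes, the factor Pax5 then fixes the B-cell fate, and later cells carry a B-cell receptor whose signal passes through the Cd79a and Cd79b chains. Stem cells lie upstream of these steps and CD8 T cells on another branch, so neither sorted population is a B-lineage one by its gate.

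Regulatory letters known from B-lineage promoters were looked up in the 7 members with an entry among the RefSeq promoter sequences (build GRCm38.p6, 250 bases before to 50 after each start): Vpreb1, Igll1, Dntt, Pax5, Cd22, Cd72 and Blnk. The windows below belong to 4 genes that had at least 1 such match and that had a probe set at background on all ten-cell arrays, and they are shown to give the sequence context of genes that were largely unread here. Capitals mark the matched letters, with 20 bases on either side or fewer at a window edge, read 5′ to 3′ along each gene's own strand, the minus strand in all 4. Searched on both strands, the octamer ATGCAAAT matched in Blnk (at position -130 from the start, as its reverse complement), the E-box CAGGTG of E2A proteins in Vpreb1 (at -88), and the core CCCNNGGG of the factor EBF1 in Cd22 (at -48) and Igll1 (at -231). The E-box also matched in Blnk (at -160), Cd22 (at -245) and Igll1 (at -8), which are not shown.
Blnk, chr19:40994324-40994371: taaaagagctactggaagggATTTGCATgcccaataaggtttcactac
Vpreb1, chr16:16869318-16869363: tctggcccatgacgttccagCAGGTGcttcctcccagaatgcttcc
Cd22, chr7:30879049-30879096: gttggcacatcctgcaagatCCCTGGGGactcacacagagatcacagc
Igll1, chr16:16864189-16864235: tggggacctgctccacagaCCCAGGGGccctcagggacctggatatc
The octamer stood in 1 of the 7 member promoters and in 1.74% of all 32851 promoters of this length, the EBF1 core in 2 of 7 and 13.7%, and the E-box in 4 of 7 and 20.2%. The initiator letters CTCATTCT stood in 0 of 7 and in 1.34% of all. These matches describe letters alone, and the 3 kinds found do not overlap one another in the windows shown.

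Signal intensities are on the linear scale of the deposited table, where the trimmed mean of every array lies between 242.3 and 248.1. For the ten-cell pools, intensities under 128 (a log2 level of 7) were set to that floor, since 9 of the SP arrays hold negative values in 24.6% to 32.1% of their probe sets and values this low carry no order. All CD8 arrays hold positive values alone, so the kind of values and the population go partly together. A log2 level of 9 (an intensity of 512) was taken as detection. Levels of different probe sets are not compared, as each has its own affinity. T-cell markers checked the gates: 8 of 11 genes were at log2 9 or more in each CD8 pool and 0 in each SP pool, while 4 to 6 of 6 stem cell genes reached this level in the SP pools and 0 in the CD8 pools.

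In the pools, 4 of the 9 genes were at the floor throughout and 5 were above it on at least 1 array. Of the 16 member probe sets, 9 never left the floor over the 18 ten-cell arrays (56.2%, against 45.1% of all probe sets). These were both probe sets of Vpreb1, Pax5 and Blnk, the only one of Cd22, and 1 each of Dntt (103962_at) and Igll1 (99428_at). The first share is near that of all probe sets. At log2 9 or more in at least 1 pool stood 2 member probe sets, those of Cd79b and Cd72 (12.5%, against 35.0% of all probe sets).

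The surrogate light chain is made of the Vpreb1 and Igll1 proteins, which pair with the first heavy chain of a pre-B cell. Vpreb1 (161297_f_at and 92972_at) never exceeded an intensity of 69.7 and 81.9 on the ten-cell arrays. Igll1 (99429_at) passed the floor on 1 array only: LSP M read 162.8 on array 2 but 35.4 on array 1, so its duplicate did not repeat the signal. Every other ten-cell array of that probe set was at 105.2 or less, and the groups overlapped at the floor.

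Dntt encodes terminal deoxynucleotidyl transferase, which adds bases at the joints of rearranging receptor genes in early B and T cells. Its probe set 103961_s_at read 145.9 and 147.6 on the arrays of USP O and 250.4 and 341.0 on those of CD8 B. All other ten-cell arrays of it were at 34.7 or less. The probe set 161409_f_at read 277.9 and 313.8 in USP O and 199.5 and 179.6 in CD8 B, and at most 75.8 elsewhere. Both probe sets were thus above the floor in the same pair of pools and on both arrays of each, although they put these pools in opposite order. The third, 103962_at, did not: its highest ten-cell intensity was 43.3. The suffixes of the first pair mark probes that can also bind related transcripts, and 103962_at carries no such mark. No Dntt probe set reached a log2 level of 9 in any pool.

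Pax5, the factor that holds cells to the B lineage, had no reading above the floor in the pools. The highest intensity was 90.1 for 102578_at and 70.6 for 96993_at.

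Cd79b, the beta chain of the receptor's signalling pair, was the member with the widest range (161012_at). In LSP it read -15.2 and -23.5 in pool A, 734.0 and 416.1 in pool B, and -0.7 and -53.3 in pool M. In USP it read 714.2 and 808.6 in pool N, 1009.6 and 838.0 in pool O, and 159.4 and 176.0 in pool Z. One LSP pool and all USP pools were thus above the floor, and both arrays of a pool always stood on the same side of it. In CD8 it read 1055.7 and 1175.6 in pool B, 1780.3 and 2160.4 in pool C, and 62.6 and 68.3 in pool D. The populations overlapped, each CD8 and LSP range reaching down to the floor, and the pools of a population differed far more than the arrays of a pool. Mean log2 levels were 7.70 ± 1.22 (SD, n = 3 pools) in LSP, 8.93 ± 1.35 (n = 3) in USP and 9.35 ± 2.08 (n = 3) in CD8. In a bulk pool of cells, fewer cells that express a gene and less RNA in each cell cannot be told apart, and this holds for every pool value given here.

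Among the co-receptors, which tune the receptor's signal, Cd22 carries inhibitory motifs and binds sialic acid, and Cd72 is a C-type lectin that also restrains signalling. Cd22 (102939_s_at) stayed at or under 83.2. Cd72 (101878_at) read 1259.6 and 818.4 on the arrays of USP Z, a mean log2 level of 9.99, while the other 16 ten-cell arrays lay between -45.6 and 80.8. A single pool, read alike by both arrays, therefore held all of the Cd72 signal.

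Blk, a Src-family kinase that phosphorylates the receptor chains, crossed the floor narrowly and in 1 pool only. In USP O, 92359_at read 144.6 and 128.9 and 95893_at read 133.1 and 134.9, and elsewhere the highest values were 62.2 and 75.1. Blnk, the adaptor that links the kinase Syk to phospholipase C gamma 2, stayed at or under 48.4 (100771_at) and 51.5 (100772_g_at).

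**Figure D1:**
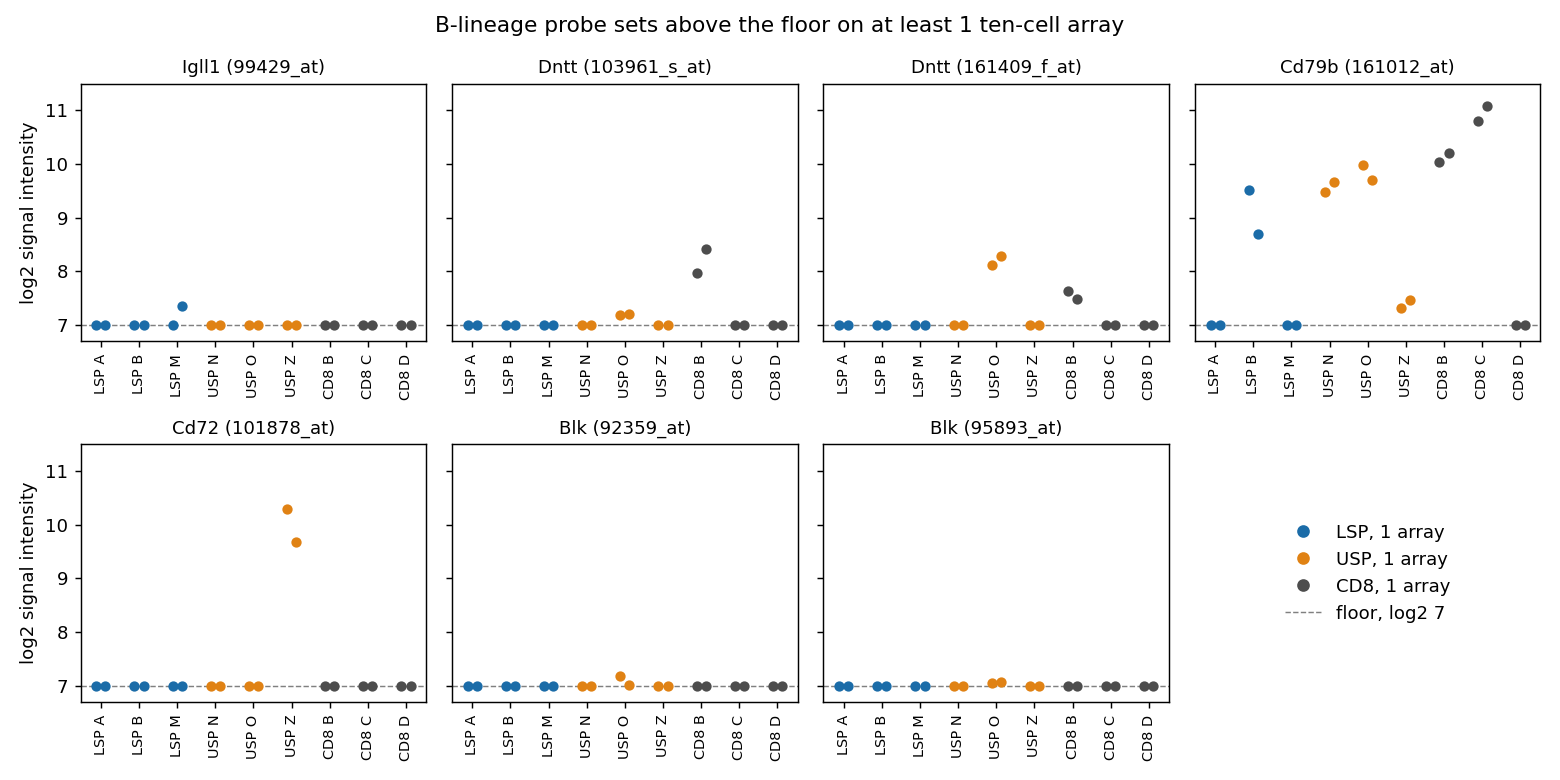
Log2 signal intensity (y axis, floor at 7, dashed) of the 7 B-lineage probe sets that passed the floor in the ten-cell data, by pool (x axis), with 1 point per array. Cd79b is above the floor in 6 of 9 pools, Cd72 in USP Z alone, Blk in USP O alone, and 2 Dntt probe sets in USP O and CD8 B.

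By pool, USP O had the most members above the floor, 5 probe sets of 3 genes (Cd79b, Dntt and Blk). CD8 B had 3 probe sets of 2 genes (Cd79b and Dntt), USP Z had 2 (Cd79b and Cd72), and LSP B, LSP M, USP N and CD8 C had 1 each. LSP A and CD8 D had 0. The members were not read as a block: the pool with Cd72 had no Dntt or Blk, and the pool with the highest Cd79b had no other member.

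The first comparison asked which transcripts differ between SP cells and mature T cells. With limma, 0 of the 7 tested member probe sets differed between SP (the mean of LSP and USP) and CD8 at an adjusted p under 0.05, against 5.83% of all 6823 probe sets tested, and 0 did so at an unadjusted p under 0.05. Their median log2 difference was 0.01, beside 0.04 over all probe sets tested. All of these members but Cd79b were above the floor in only 1 or 2 pools. The floor therefore sets most of their values and this median, and the test could hardly call them. For Cd79b, the log2 level in SP was 8.32 ± 1.33 (SD, n = 6 pools) against 9.35 ± 2.08 (n = 3) in CD8, a difference of -1.03 ± 1.05 (SE) with an adjusted p of 0.687. Cd72 differed by 0.50 ± 0.66 (adjusted p = 0.736), Dntt by -0.36 ± 0.27 (103961_s_at, adjusted p = 0.554) and 0.01 ± 0.30 (161409_f_at, adjusted p = 0.987). With a standard error of this size, a difference of 1 log2 unit in Cd79b was not detectable. The arrays with positive values alone keep LSP B and USP Z as the only SP pools. On them the Cd79b difference was -1.31 and that of Cd72 was 1.49. Each SP population is then 1 pool, and the spread of Cd72 comes only from CD8 pools that all lie at the floor. A call of Cd72 there has no spread of SP pools behind it.

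The second comparison set the lower part of the SP tail against the upper. Again 0 of 7 member probe sets differed by limma, against 0.103% of all 6823, and 0 did so at an unadjusted p under 0.05. Their median log2 difference, LSP minus USP, was -0.07, with 0.00 over all probe sets. All but Cd79b were above the floor in only 1 SP pool, so the floor sets most of this median too. Cd79b was lower in LSP by -1.23 ± 1.21 on the log2 scale (SE, adjusted p = 0.881) and Cd72 by -1.0 ± 0.76 (adjusted p = 0.876), neither beyond the spread of the pools. On arrays with negative values alone the Cd79b difference was -1.87 (adjusted p = 0.909), and it was -2.0 without USP Z and -0.78 without USP O. Cd72 could not be fitted on those arrays, since its only signal came from USP Z.

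Other genes of the pathway differed in both directions. In SP against CD8, limma called 6 of 45 tested probe sets from 4 lists of B-lineage genes, 2 higher and 4 lower in SP. Of all 6823 probe sets tested, 5.83% were called, the share to set beside each list below. In LSP against USP 0 of 45 were called, against 0.103% of all, with 1 of the 45 at an unadjusted p under 0.05. In the list of receptor and co-receptor genes, 3 of 10 tested probe sets passed in SP against CD8, with a median log2 difference of -0.62. Cd81, a tetraspanin of the co-receptor complex that many other cells also carry, was at 10.38 ± 0.17 (log2, SD, n = 6) in SP and at the floor in all CD8 pools, at least 10.4-fold higher when set against that floor (adjusted p = 3.21e-06). Ighm, the mu heavy chain, was higher in CD8 on both probe sets that passed: 93583_s_at stood at 10.28 ± 0.09 (n = 3) against 7.07 ± 0.16 (n = 6, adjusted p = 6.82e-06). Its 93584_at stood at 11.23 ± 0.12 against 7.64 ± 1.15 (adjusted p = 0.013), with USP Z at 9.84 and USP O at 8.02 and the other SP pools at the floor. Most other probe sets that the annotation gives to Ighm were at the floor in every pool.

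Among receptor-proximal signalling genes, 1 of 11 tested probe sets passed: Pik3cd (103866_at), a lymphocyte PI3-kinase subunit, was higher in CD8 at 8.65 ± 0.19 against 7.01 ± 0.03 (adjusted p = 0.00012). Of the early B-cell and recombination genes, 2 of 9 passed. Cd24a, a surface glycoprotein of B-cell precursors that other immature blood cells also carry, was at least 30.1-fold higher in SP (adjusted p = 3.47e-05). Il7r, the receptor chain for interleukin-7, used by early lymphoid and resting T cells, was at least 37.5-fold higher in CD8 (adjusted p = 1.1e-06). Of the B-lineage transcription factors, 0 of 15 tested probe sets passed by limma, with 1 at an unadjusted p under 0.05. These 15, out of 23 on the list, had all left the floor in some pool. In LSP A 4 of the list's 17 genes were detected, in LSP B and CD8 C 0, and in each other pool 1. The untested probe sets stayed at the floor in every pool. Ebf1 and Tcf3 (98040_at), picked with their values in view, were among these. The lists hold genes shared with other lineages, and their medians in SP against CD8 ran from -0.66 to 0.07 beside 0.04 over all probe sets.

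The pools with member signal were also set beside markers of mature B cells and of antigen-presenting cells. In CD8 B, Cd79b and Dntt were both above the floor. Ms4a1 (104173_at, the CD20 antigen of mature B cells) was there at a log2 level of 12.78. Its second probe set, 99446_at, read 100.8 and 47.7 in CD8 B and was at the floor in every pool. Cd79a, the partner chain of Cd79b, was at 9.56 and Fcer2a, the low-affinity IgE receptor, at 9.07. The class II chains H2-Aa and H2-Ab1 and the invariant chain Cd74 were at 9.14, 8.90 and 9.11 there. All 6 genes were at the floor in CD8 C and CD8 D. Yet CD8 C had the highest Cd79b of all pools, at 10.94. Other genes of the receptor and co-receptor list were high in every CD8 pool. In CD8 B, C and D, Ighm was at 11.1, 11.3 and 11.3 (93584_at) and at 10.2, 10.3 and 10.4 (93583_s_at). Cd37 was at 11.4, 11.3 and 10.6 in the same order. Summed over the receptor and co-receptor list, log2 units above the floor came to 22.1 in CD8 B, 11.9 in CD8 C and 11.3 in CD8 D, and over the antigen-presenting list to 12.03, 4.89 and 4.56. The part of such cells in the Dntt and Cd79b values of CD8 B was not tested. By limma, the Cd79b difference between SP and CD8 was -0.65 without CD8 B (adjusted p = 0.858). Without CD8 C it was -0.24 (adjusted p = 0.944). That of Dntt 103961_s_at turned from -0.36 to 0.03 without CD8 B, the only CD8 pool where this probe set was above the floor.

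In USP O, Cd79a (8.88) and H2-Aa (10.11) were above the floor beside Cd79b, Dntt and Blk. Ms4a1, Fcer2a, H2-Ab1 and Cd74 were at the floor there. Granulocyte and monocyte genes were also highest in that pool, with 6 of 11 genes at log2 9 or more and a summed level of 19.9 log2 units, against 6.37 to 13.6 in the other SP pools. In USP Z, the pool with Cd72, Ighm 93584_at was at 9.84, and Cd79a, Ms4a1 and Fcer2a were at the floor. LSP B and USP N, which held Cd79b, likewise had these 3 at the floor. Some class II genes were above the floor in these pools. H2-Ab1 was at 9.26 in USP Z, 9.61 in USP N and 7.71 in LSP B, and H2-Aa at 8.91 in LSP B. Cd74 was at the floor in USP Z, at 7.27 in USP N and at 7.88 in LSP B. The antigen-presenting list summed to between 3.0 and 11.6 in the SP pools. It was highest in LSP M, with Cd74 at 10.34 and H2-Ab1 at 9.23, where Cd79b and Cd72 were at the floor. Plasma cell genes summed to between 0.00 and 3.05, with Jchain at the floor throughout. The part of other cell types in the SP values was not tested.

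**Figure D2:**
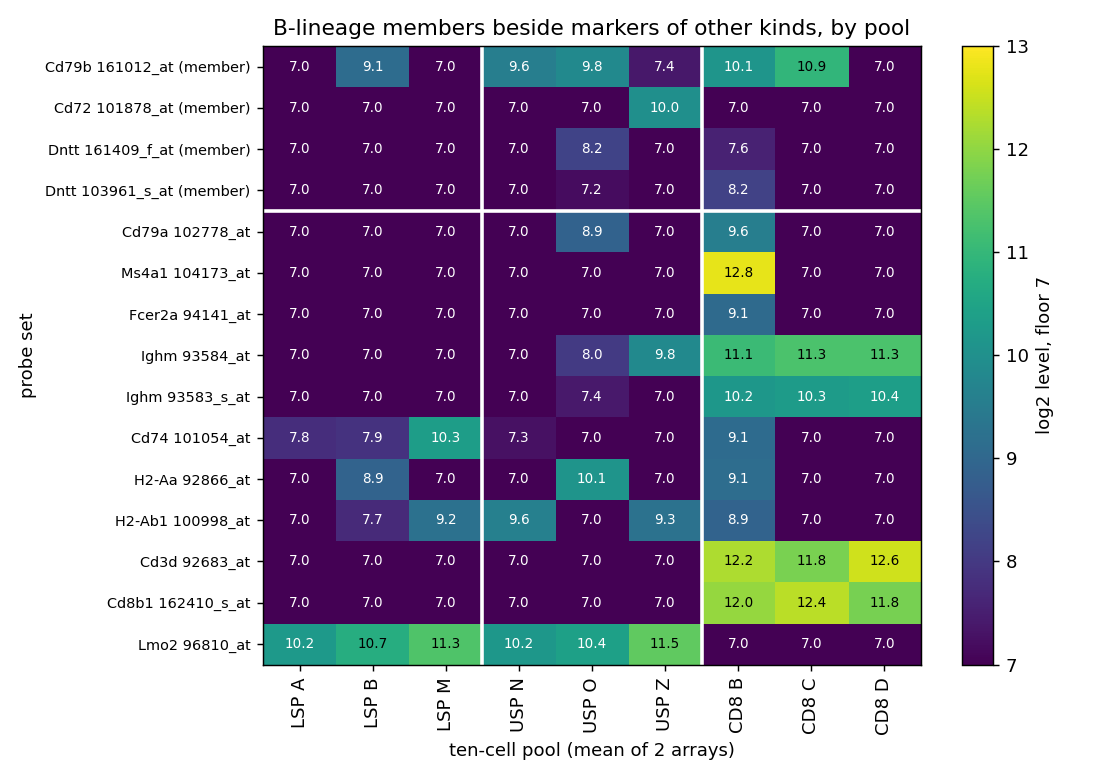
Mean log2 level of 2 arrays (floor 7, colour and printed value) in each ten-cell pool (x axis) for 4 member probe sets above the line and for markers of B cells, antigen-presenting cells, T cells and stem cells below it. CD8 B holds Ms4a1 at 12.8 and Cd79a at 9.6, while CD8 C, with Cd79b at 10.9, has both at 7.0.

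Cd79b and Cd72 were also matched with other probe sets by their levels over the 9 pools. For Cd79b, the probe sets most alike in level were Hps4 (r = 0.908), Ipo8 (0.890), Aldoart2 (0.856), Nfkbia (0.856) and Mroh1 (0.853), as Pearson r over 9 pool levels. For Cd72, 122 single-gene probe sets had an r of at least 0.99, since every probe set above the floor in USP Z alone has the same pattern. More than 5 of them tie at an r of 1, and none is singled out. These correlations share pools and arrays and are a description.

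The member with the widest range among pools was then followed on the single-cell and SCE arrays. Cd79b was detected in 1 of 12 single SP cells: cell F read 7080.4, with a median of 39.8 over the 12 cells, a lowest value of 10.8 and a next highest of 169.3. Among the 5 SCE arrays, which sample 1 lysate, it read 282.7, 3355.7, 27.7, 19.8 and 48.9 in A to E. A single reading thus stood apart among the cells. Among the SCE only B was detected, but SCE A, at a log2 level of 8.14, lay between B (11.71) and the rest. The SCE differed in this way although they come from 1 lysate. Of all probe sets, 11.1% were detected in exactly 1 single cell, and 2.37% in exactly 1 single cell and exactly 1 SCE.

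Cell F had Cd79a at 190.3, Ms4a1 at 18 (104173_at) and 19.7 (99446_at), H2-Aa at 108.4 and Cd3d at 22.5 (92683_at), none of them detected. Of the receptor and co-receptor list, the tetraspanins Cd37 (1981.3) and Cd81 (1267.1) were detected in it. Lmo2, a stem cell factor, was detected by 96810_at (1171.8) but not by 93666_at (235.1). Class II genes were read on many of the SCE arrays: Cd74 was detected on 5 of 5 SCE arrays and in 1 of 12 cells, and H2-Aa on 4 of 5 and in 2 of 12. The log2 difference, cells minus SCE, was -2.6 ± 0.67 (SE) for Cd74 and -4.49 ± 1.21 for H2-Aa. By limma their unadjusted p-values were 0.000928 and 0.00147, and neither was called (adjusted p = 0.308 and 0.36). H2-Ab1 was detected on 3 of 5 SCE arrays and in 0 of 12 cells, with a difference of -1.5 ± 0.74 (limma, adjusted p = 0.864). Cd79a was detected on 1 of 5 SCE arrays (SCE E, at 658.8) and in 0 of 12 cells, Cd37 on 1 of 5 and in 6 of 12, and Ms4a1 on 0 of 5 and in 0 of 12.

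The log2 level of Cd79b was 6.02 ± 2.37 (SD, n = 12) in single cells and 6.91 ± 3.06 (n = 5) in SCE. The difference of -0.89 ± 1.28 (SE) was not called by limma (adjusted p = 0.941), so that 0 of the 1 member probe set tested passed, against 0.0429% of 4659 probe sets, and 0 did so at an unadjusted p under 0.05. Without SCE B it became 0.31. The exact 1-sided permutation test of spread gave p = 0.818 for Cd79b (adjusted p = 0.952), with a mean absolute deviation from the median, cells minus SCE, of -0.845 log2 units. It called 0 of 4659 probe sets, or 0.0%, with 391 at an unadjusted p under 0.05. With 6188 relabellings, the smallest p it gave was 0.000162, too large for a lone probe set to pass the adjustment. This test with 5 SCE arrays thus could hardly separate any probe set after adjustment, and it separated none.

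The other 15 member probe sets were not detected in any single cell or SCE, so that 1 of 16 was detected in at least 1 cell and 1 of 16 on at least 1 SCE array, against 33.9% and 25.3% of all 12422. Their highest readings in cells were 386.3 for Vpreb1 (92972_at, cell D, with cell F at 335.8), 369.4 and 257.3 for Pax5 (102578_at, cells L and H), 342.1 for Dntt (103961_s_at, cell G) and 281.0 for Pax5 (96993_at, cell B). Each lay under 512 and above 256, the level of the lower threshold. The 2 Pax5 probe sets were not highest in the same cell. On SCE arrays the highest among these 15 was 238.2, for Pax5 (102578_at). Igll1 (99429_at) peaked at 253.5 in cell G, Blnk (100771_at) at 240.2 in cell D, Cd22 at 241.1 in cell G, and Blk at 111.4 (92359_at, cell G), while Cd72 reached 76.2 in a cell and 198.4 in SCE C. At a threshold of log2 8 in place of 9, 5 member probe sets were detected in at least 1 cell, and at log2 10 only Cd79b was.

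**Figure D3:**
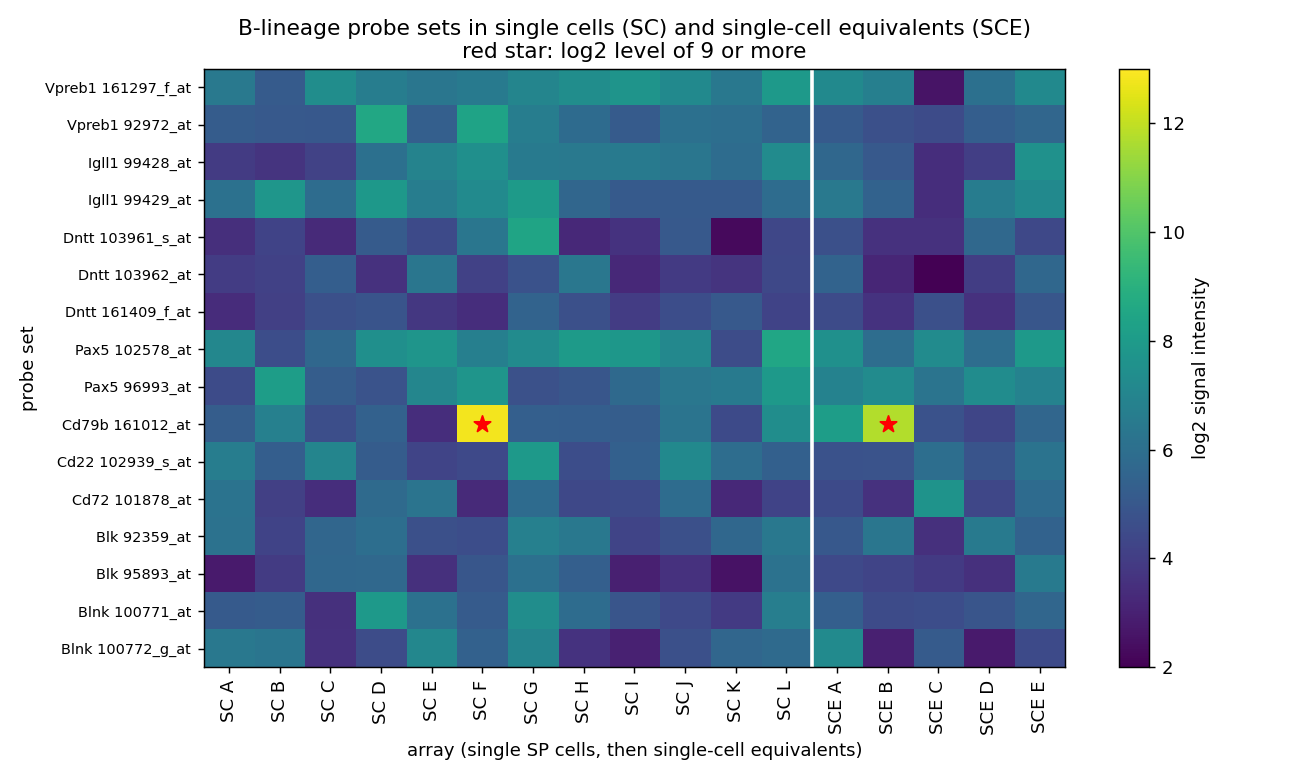
Log2 signal intensity (colour, no floor) of the 16 B-lineage probe sets (rows) in 12 single SP cells and 5 single-cell equivalents (columns), with a red star at a log2 level of 9 or more. Stars mark Cd79b in cell F and in SCE B, and no other member.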

How the data were processed

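The authors deposited 1 table of Affymetrix signal intensity on a linear scale, covering all 35 arrays; the methods name Affymetrix Microarray Suite 5.0 for collecting raw probe intensities and RMA for log2 expression levels, which these values are not, and which step made the deposited values is not stated. Of 12488 probe sets, 66 controls were left out. Ten-cell intensities were floored at log2 7, logged and averaged over both arrays of a pool. Fits used limma (version 3.58.1, under R 4.3.3) on 6823 probe sets, those that passed the floor somewhere in the ten-cell data, and gave each population its own mean. Single-cell and SCE values were logged with no floor, and the 4659 probe sets at log2 9 or more on at least 1 of these arrays were tested with limma and with an exact permutation test of spread over all relabellings of the 17 arrays. All p-values were adjusted by Benjamini-Hochberg over the probe sets tested in each comparison. The SP against CD8 fit and the test of spread were run on simulated data with known changes, and the other steps were not. The simulated pools had no floor, unlike the real ones. Every member probe set is named, other list genes only where they passed in a ten-cell comparison, and markers were shown with their pools; Ebf1, Tcf3 and the markers set beside single pools or cells were chosen with their values in view. Among other genes, the 5 probe sets with the highest Pearson r to Cd79b were named, and those tied for Cd72 were counted. The floor, the thresholds, the members and the lists were chosen with earlier results of these data known. Alternatives changed the floor, filter, detection level, normalization and pools used. Array numbers did not pair the pools. Other steps used pandas 2.3.3, scipy 1.17.1, matplotlib 3.10.9 and numpy 2.4.6 under Python 3.11.15. The number of arrays and pools limits the precision.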

Additional observations from a re-analysis of the deposited data

Results flagged for a closer look

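A pool or array far from the rest of its group, by the gap to its nearest neighbour as a share of the whole range, was found for 7 member probe sets. Chance marks about 1 in 20 groups, and a probe set at the floor in all pools but 1 is marked by construction. Among the 6 SP pools, USP Z was highest for Cd72 (log2 9.99). USP O was highest for Dntt, at 7.20 (103961_s_at) and 8.21 (161409_f_at), and for Blk, at 7.09 (92359_at) and 7.07 (95893_at). LSP M was highest for Igll1 99429_at (7.17), on 1 of its arrays only. Among the 5 SCE arrays, SCE C was lowest for Vpreb1 161297_f_at, at a log2 level of 2.58, an intensity of 6.0 and far under the detection level.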

How the results depend on the processing

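Counts of member probe sets called or detected were the same under 56 of 58 alternatives. Most of these were counts of 0 called, and the tests on single cells and SCE mostly held 1 member probe set, so few counts could have moved. The first exception was SP against CD8 on arrays with positive values alone, where Cd72 was called. Its log2 difference was 1.49, with 1 pool per SP population and the spread coming from CD8 alone. The other was the number detected in single cells, which was 5 at log2 8. With the array number as a replicate block, 0 members were called in both ten-cell comparisons; the numbers do not pair the pools (median r of deviations -0.0086, over 0.1 in 5 of 36 pairs), and the labels give no other pairing. Leaving out 1 pool or SCE array at a time gave 0 members called in each comparison, from 0 to 0. Of the single log2 differences, 8 changed sign. For Dntt 103961_s_at in SP against CD8 it was 0.03 without CD8 B, in a leave-one-out range from -0.56. For Dntt 161409_f_at it was -0.13 with a floor of log2 6, -0.06 with quantile normalization, -0.19 without USP O (leave-one-out range up to 0.20), -0.08 without CD8 C or CD8 D, and -0.19 on arrays with positive values alone. For Cd79b in single cells against SCE it was 0.31 without SCE B and down to -1.54 without others. Signals that rest on 1 pool, values under the floor and 3 pools per population limit what could be called. The number of all probe sets called ranged from 214 to 1606 in SP against CD8, from 0 to 31 in LSP against USP and from 1 to 5 in single cells against SCE over the alternatives. Leave-one-out of the pools moved Cd79b between -2.21 and -0.24 in SP against CD8 (lowest without CD8 D, highest without CD8 C).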
